A study of Mus musculus with 16 samples.

Results

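Among the open chromatin of mouse liver, 1671 regions carried a DNase hypersensitive site (DHS) in both lists from C57BL/6J (B6) livers and in neither list from CAST/EiJ (CAST) livers. They were 3.30% of the 50655 regions obtained on chr1 to chr19 by joining every peak of 4 DNase-seq peak lists that overlapped another by at least 1 bp. The members were therefore selected on measured values, the presence of a peak in each list, and their presence by strain and their strength in the B6 lists are descriptions here and not findings. The 4 lists came from male B6, female B6, male CAST and female CAST livers of 8-week-old mice, and each was made by pooling the sequencing reads of 4 libraries before peaks were called, so that no list has a replicate error. B6 is the laboratory strain from which the mouse reference genome was read, whereas CAST is a wild-derived strain of another subspecies, Mus musculus castaneus. Nuclei of all livers were cut with 32 units of DNase I after isolation from freshly excised tissue.

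DNase I cuts DNA where nucleosomes have been displaced, so a DHS marks a promoter, enhancer or other site held open by bound proteins. In liver, much of the distal open chromatin is held by hepatocyte factors such as the FOXA pioneer factors, the C/EBP family, HNF4A and HNF6. Strains that differ at many bases can differ in which of these sites are bound, and promoters used by every cell tend to be shared while distal sites vary more.

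The following windows show 7 of the B6-only regions, each read from mm9 on the plus strand over 100 bp to either side of the male B6 summit. The Prkce window and the one above it came from the members that led by the lower of their −log10 q ranks in the B6 lists, the Nab1 window lay at a promoter, the Slc22a29 window was the most female-leaning member, and the others lay in or near genes of liver metabolism and of blood clotting. Capitals mark words for FOXA (TGTTTAC or TGTTTGC), C/EBP (TTGCNNAA), HNF4A (CAAAGTNCA), HNF6 (ATTGATT), STAT (TTCNNNGAA) and SP (GGGCGG) on either strand.
Near 1300014I06Rik, chr13:34642288-34642488: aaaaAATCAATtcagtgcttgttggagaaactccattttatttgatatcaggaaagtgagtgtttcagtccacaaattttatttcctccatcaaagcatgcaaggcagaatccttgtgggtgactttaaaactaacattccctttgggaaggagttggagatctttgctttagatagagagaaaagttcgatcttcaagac
Prkce intron, chr17:86863832-86864032: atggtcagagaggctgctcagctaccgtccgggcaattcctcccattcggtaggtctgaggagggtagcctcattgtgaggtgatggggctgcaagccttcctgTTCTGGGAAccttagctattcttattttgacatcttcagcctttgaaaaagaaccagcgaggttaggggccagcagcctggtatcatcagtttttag
Nab1 promoter, chr1:52522721-52522921: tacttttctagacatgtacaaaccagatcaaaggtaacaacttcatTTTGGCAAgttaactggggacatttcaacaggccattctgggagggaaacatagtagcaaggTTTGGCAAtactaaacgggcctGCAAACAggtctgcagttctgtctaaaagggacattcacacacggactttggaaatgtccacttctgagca
Slc22a29 intron, chr19:8326769-8326969: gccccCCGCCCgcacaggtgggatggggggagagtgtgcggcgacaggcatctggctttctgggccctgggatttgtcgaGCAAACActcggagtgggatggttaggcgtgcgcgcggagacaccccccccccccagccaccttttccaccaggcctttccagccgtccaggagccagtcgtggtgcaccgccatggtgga
Haao intron, chr17:84235544-84235744: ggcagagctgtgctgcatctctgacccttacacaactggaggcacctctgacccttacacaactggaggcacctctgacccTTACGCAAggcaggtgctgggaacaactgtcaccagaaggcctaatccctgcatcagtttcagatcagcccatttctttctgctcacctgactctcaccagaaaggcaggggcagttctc
Upstream of F11, chr8:46353188-46353388: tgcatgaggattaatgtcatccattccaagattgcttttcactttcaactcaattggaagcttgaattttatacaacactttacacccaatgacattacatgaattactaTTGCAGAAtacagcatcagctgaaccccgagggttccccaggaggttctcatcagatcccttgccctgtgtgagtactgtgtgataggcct
Upstream of Apoa5, chr9:46067238-46067438: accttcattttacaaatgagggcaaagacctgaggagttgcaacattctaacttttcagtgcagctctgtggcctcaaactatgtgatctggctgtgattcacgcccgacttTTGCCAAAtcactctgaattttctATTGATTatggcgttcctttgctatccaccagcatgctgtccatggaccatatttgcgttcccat

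Of these words the 1300014I06Rik window held only one for HNF6, near its edge, and the Prkce window a STAT word close to the summit. In the Nab1 window a pair of C/EBP words flanked the summit, and a FOXA word lay to one side of it. The Apoa5 window held a C/EBP word and an HNF6 word on the same side of its summit. A match of letters is a description and does not show that a factor was bound.

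Most of the members were weak among the sites of their lists. Fold enrichment, the number of fragments piled up at the summit over the local background, had a median of 3.13 in the male B6 list and 2.61 in the female B6 list. In the regions found in all 4 lists the medians were 5.35 and 3.88. The members' significance, −log10 of the q-value, ranged from 1.57 to 405 in male B6 with a median of 12.2, and from 1.34 to 137 in female B6 with a median of 5.47. Ranked within its own list, the median member stood at percentile 40.1 in male B6 and at percentile 22.5 in female B6. In the male list 562 members (33.6%) lay above the list median, in the female list 244 (14.6%), and 218 (13.05%) did so in both. The CAST-only regions, which are the 1844 regions with the opposite pattern, stood at similar ranks in their own lists, with medians at percentile 45.2 in male CAST and 24.6 in female CAST. Members had a median width of 569 bp, against 586 bp for CAST-only regions and 924 bp for the regions in all 4 lists.

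The boundary of the set was a peak call and not a gap in signal. The weakest member in the female list lay 14120 bp from a Dnajc13 start, where −log10 q was 12.7 for males and 1.34 for females of B6. Just outside the set, a region 5393 bp from a Pmf1 start had a −log10 q of 3.36 and 2.06 in the B6 lists and was left out because of a male CAST peak at 1.59. Of the 23241 regions with a peak in both B6 lists, 3571 had a peak in 1 CAST list, which was the male list in 3471 of them. Another 8788 regions had a peak in 1 B6 list and none in CAST, of which 7223 were in the male list. Where the background was the genome-wide one, the lowest fold enrichment called in male CAST was 1.90. A fold enrichment of at least 3 times that value was reached in male B6 by 123 members (7.36%), and of at least 2 times by 486 (29.1%). The nearest CAST peak lay at a median of 9987 bp from a member and within 500 bp for 70 of them (4.19%).

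The depth of the lists differed, and this touches every count of absent peaks. The genome-wide background recovered from the peak scores was 15.35 fragments for B6 males, 13.9 for B6 females, 14.3 for CAST males and 7.94 for CAST females, and the lists held 38751, 26271, 39562 and 24888 peaks in that order. When pileups and backgrounds were scaled to the shallowest list, 1501 regions were B6-only, and 1381 of the 1671 members (82.6%) still overlapped such a region, although the scaled lists still held 24625 to 37037 peaks. With every list cut to the length of the shortest, 1933 regions were B6-only and 926 of the members (55.4%) overlapped one. With peaks joined at 50% of both, 1283 members (76.8%) did so. Requiring a −log10 q of 15.7 of each B6 peak, either in every list or with the CAST lists as deposited, kept 152 members (9.10%).

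**Figure D1:**
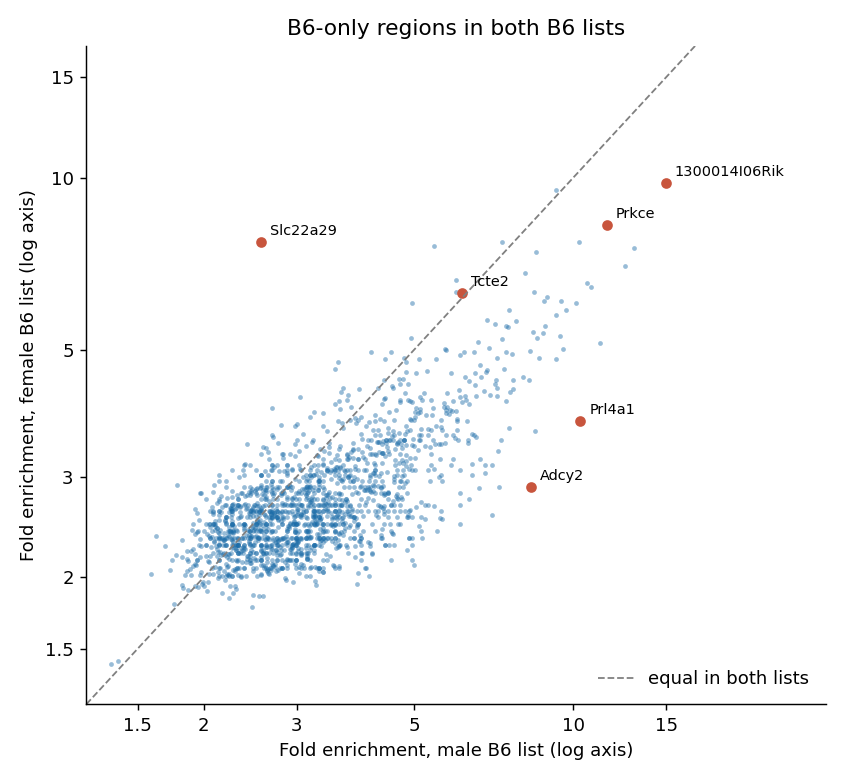
Fold enrichment of each of the 1671 B6-only regions in the male B6 list (horizontal, log axis) and the female B6 list (vertical, log axis), with 6 members named in red. Most points lie below the dashed line of equal enrichment, and the Slc22a29 region stands farthest above it at 2.57 in male and 7.70 in female B6.

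Of the 12 members with the highest lower rank of the 2 B6 lists, 9 had an intergenic summit. The first, at chr13:34641929-34642874, had a fold enrichment of 14.96 in male B6 and 9.77 in female B6, and lay 97563 bp from the nearest start, that of 1300014I06Rik. The second, at chr17:86863561-86864320 in an intron of Prkce, which encodes a protein kinase C, had 11.6 in male and 8.27 in female B6. The third, at chr2:169176840-169177661, lay 36920 bp from the non-coding gene Gm14250, with 10.2 in male and 7.70 in female B6. Their −log10 q in female B6 was 137, 109 and 82.5, which placed them at percentiles 97.5, 95.9 and 92.98 of that list. No CAST peak came within 16718 bp of any of them.

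The next of these 12 lay near a mixed set of genes. A region 50565 bp from Pde7b, a phosphodiesterase that degrades cyclic AMP, had a fold enrichment of 8.12 in male and 6.80 in female B6. One 13275 bp from Fam107a had 6.88 and 5.64, and one 25930 bp from the non-coding gene 4930579D09Rik had 13.02 and 7.54. A region 2280 bp from AW112010 had 12.5 in male and 7.002 in female B6. In an intron of Arhgef10l the values were 8.52 and 7.43. A region 152090 bp from Krr1, a factor of ribosome assembly, had 10.6 and 6.53, and one 98791 bp from Max, the partner of Myc, had 9.48 and 6.09. The remaining ones lay in an intron of Tcte2, with 6.16 in male and 6.29 in female B6, and 150483 bp from Gm4889, with 8.43 and 6.30. All 12 were thus at least 5.64-fold over background in both sexes. Nearest start is a label of position, and no link from these regions to the genes named was measured.

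The question of where strain-specific sites lie was put to 3 measures that the selection did not use, the distance to a transcription start, overlap with a gene body, and the presence of a second copy in the genome. Each was compared with the CAST-only regions and with the 17999 regions in all 4 lists by two-sided Fisher's exact tests on region counts, with Benjamini-Hochberg adjustment over the 6 tests. These p-values cover the counts of regions in these lists and not differences between animals.

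The B6-only regions were mainly distal, and less so than their CAST counterparts. Of the members, 1344 of 1671 (80.4%) lay more than 2.5 kb from any annotated start, against 1596 of 1844 CAST-only regions (86.6%) and 8202 of 17999 regions in all 4 lists (45.6%). The share was 6.12 percentage points below that of CAST-only regions (Newcombe 95% interval of the difference −8.59 to −3.67, Fisher's exact test, adjusted p = 1.99e-06) and 34.9 points above that of the shared regions (32.8 to 36.8, adjusted p = 1.25e-172). At the starts themselves members exceeded CAST-only regions. A start was overlapped by 7.96% of members (Wilson 95% interval 6.76 to 9.36), by 3.20% of CAST-only regions (2.49 to 4.11) and by 46.5% of shared regions. Between 10 and 50 kb from a start the shares were 35.6%, 38.8% and 21.2%. When each class was limited to regions below the median −log10 q of a male list, the distal shares were 77.9%, 84.6% and 63.7%, differences of −6.67 points from CAST-only and 14.2 points from shared regions. With the stricter threshold in every list the difference from CAST-only was −3.89 points and no longer passed (Fisher's exact test, adjusted p = 0.183). With that threshold in the B6 lists alone, which left 152 members and, as weak B6 peaks dropped out, 5613 CAST-only regions, the direction turned, with 88.2% of members and 75.8% of CAST-only regions distal (12.4 points, Fisher's exact test, adjusted p = 0.000445).

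The position of members varied with their strength. Split into 3 sets of 557 by the lower of their ranks in the B6 lists, 17.1% of the weakest set lay within 1 kb of a start (14.2 to 20.4), 13.6% of the middle set and 9.69% of the strongest set (7.51 to 12.4). The mean number of CpG dinucleotides in the 100 bp to either side of the summit was 4.27 in the weakest and 3.03 in the strongest set. Gene bodies held 57.8% of the weakest (53.7 to 61.8), 56.4% of the middle and 56.6% of the strongest set (52.4 to 60.6).

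Gene bodies held 951 members (56.9%), against 54.4% of CAST-only regions, a difference of 2.47 points that was not detectable at these counts (−0.82 to 5.74, Fisher's exact test, adjusted p = 0.173). With the stricter threshold in the B6 lists alone, and so the same 152 and 5613 regions, the difference was −13.7 points and passed (Fisher's exact test, adjusted p = 0.00123). Shared regions overlapped gene bodies more often, at 75.4%, and the members' share was lower, at −18.5 points (Fisher's exact test, adjusted p = 2.78e-55). Any overlap of a region with a gene body counted here, and 46.5% of shared regions overlapped a start, against 7.96% of members. By summit the classes stood closer, with 45.5% of members and 41.2% of shared regions intergenic. Introns held more of the members' summits, at 46.4% against 34.5%. Coding exons held 3.35% of members and 6.31% of shared regions, and other exons 4.67% of members and a higher share of shared regions. The part of starts and of region width in the overlap difference was not tested.

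A second copy of the sequence around the summit, at 95% identity or more over at least 80% of 150 bp to either side, was found for 8 members (0.479%), 11 CAST-only regions (0.597%) and 33 shared regions (0.183%). The members differed from the shared regions by 0.295 points (0.048 to 0.762, Fisher's exact test, adjusted p = 0.0305), which did not pass under 5 of the 8 alternatives, and not detectably from CAST-only (adjusted p = 0.654). Only uniquely mapped reads had been kept. None of the members matched the mitochondrial genome, whereas 7 CAST-only regions did.

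**Figure D2:**
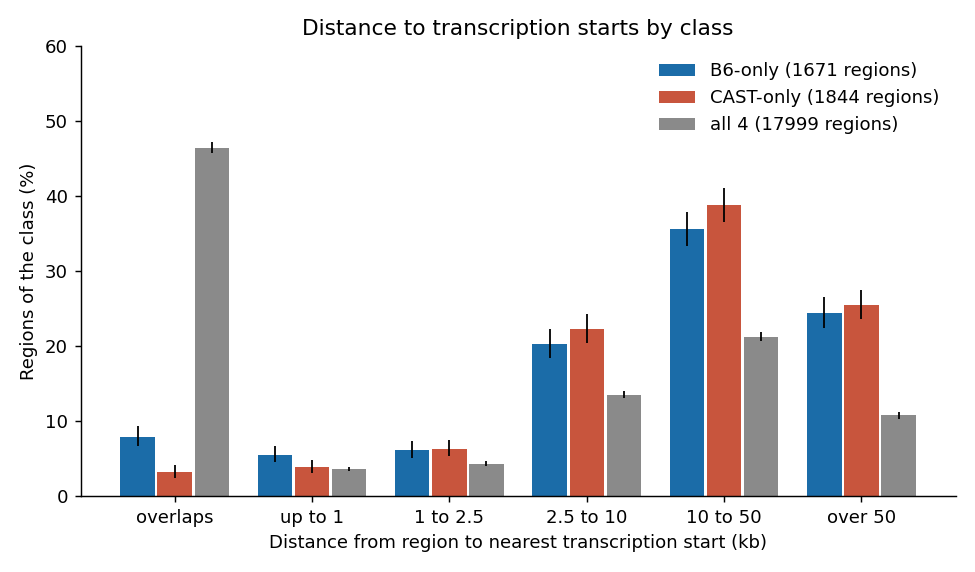
Share of the regions of each class (vertical, %) by distance to the nearest annotated transcription start (horizontal, kb), with Wilson 95% intervals for counting error. B6-only regions overlapped a start in 7.96% of cases, CAST-only regions in 3.20% and regions in all 4 lists in 46.5%.

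In base composition the members stood between the other classes. GC content around the summit averaged 48.4% in members, 46.4% in CAST-only regions and 55.6% in shared regions, and the mean CpG count was 3.76, 2.75 and 9.84. Within 1 kb of a start the 225 members averaged 8.92 CpG, the 131 CAST-only regions 5.24 and the 9012 shared regions 16.2. Promoter members were therefore poorer in CpG than shared promoters, and beyond 2.5 kb the 3 classes were closer, at 2.94, 2.48 and 3.40.

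Motif words were counted for 17 factors or factor families within 100 bp of the summit on both strands. The words were chosen after their counts had been seen, and the shares are given with Wilson 95% intervals for counting error and with no test. All windows were read from mm9, the B6 sequence, so letters that CAST carries in their place were not counted in any class. Members were thus read in the sequence of the strain that had the peaks, and CAST-only regions in that of the other strain. The effect of this on the contrast between these classes was not tested. A FOXA word stood in 243 members (14.5%, 12.9 to 16.3), in 184 CAST-only regions (9.98%, 8.69 to 11.4) and in 8.45% of shared regions. Over all 50655 regions it stood in 9.69%, and 1 kb beyond the members' summits in 7.18%. Among promoter-distal regions alone the FOXA shares were 16.1% of members, 10.6% of CAST-only and 13.03% of shared regions. The members' interval lay above that of CAST-only in both comparisons.

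Only FOXA, PU.1 and SP words had intervals for members and CAST-only regions that did not overlap. The PU.1 word GAGGAAGT, which contains the GGAAG core of the ETS family, stood in 38 members (2.27%), 19 CAST-only regions (1.03%), 1.63% of all regions and 1.68% of the windows 1 kb from the members' summits. The SP word, found at CpG-rich promoters, stood in 7.96% of members, 4.12% of CAST-only and 27.9% of shared regions, and its intervals overlapped once promoters were left out.

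The other hepatocyte words did not set members apart from CAST-only regions. The C/EBP word stood in 12.9% of members, 13.2% of CAST-only regions and 11.7% of all regions, against 7.002% at 1 kb from the members' summits. The nuclear receptor word AGGTCA stood in 19.6%, 19.2% and 17.4%, and the HNF4A word in 2.45%, 2.55% and 2.76%. Among promoter-distal regions the HNF4A word was in 2.68% of members (1.94 to 3.69) and 4.35% of shared regions (3.93 to 4.82). The HNF6 word stood in 4.07% of members and 5.75% of CAST-only regions, and the STAT word in 6.58% and 7.75%. The ETS word CCGGAAG stood in 1.80% of members and 3.43% of all regions, and the GATA word AGATAA in 11.1% and 10.3%. The AP-1 word TGANTCA stood in 7.12% of members against 6.16%, the NF-Y word CCAAT in 27.5% against 25.4%, and the E-box CACGTG in 4.67% against 4.51%. For DBP the word TTANGTAA, which resembles that of C/EBP, stood in 2.93% against 2.46%, and for CRE the word TGACGTCA in 0.539% against 0.622%. The TEAD word GGAATG was in 11.4% of members against 10.2%, and the RUNX word TGTGGTT in 4.31% against 3.68%. The intervals of members and CAST-only regions overlapped for each of these 9.

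**Figure D3:**
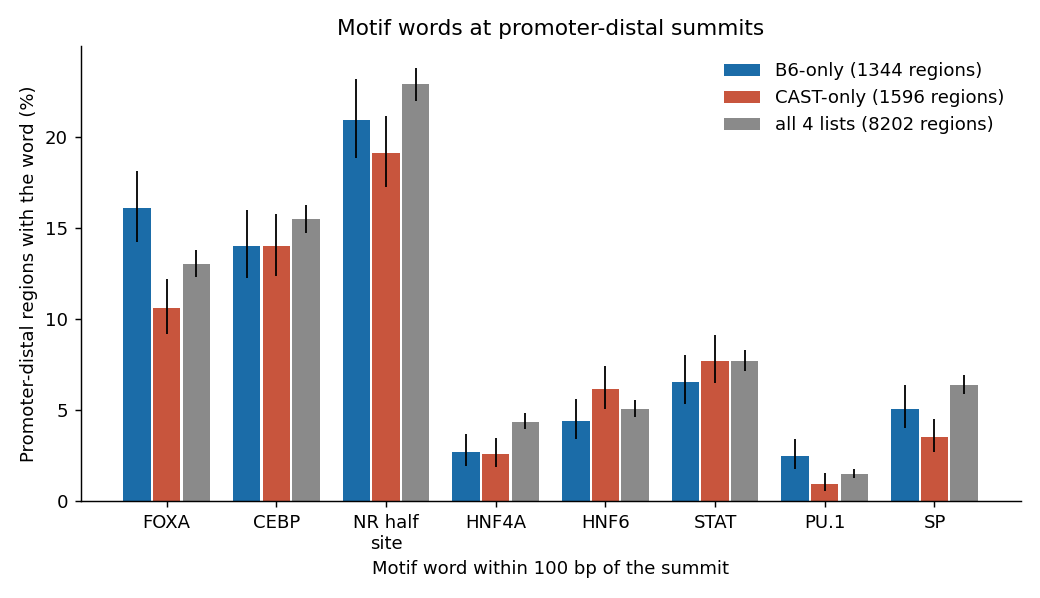
Share of promoter-distal regions (vertical, %) with a motif word within 100 bp of the summit, by factor (horizontal), with Wilson 95% intervals for counting error. The FOXA word stood in 16.1% of B6-only, 10.6% of CAST-only and 13.03% of shared regions, and the C/EBP word in 13.99%, 13.97% and 15.5%.

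At promoters, 204 members lay within 1 kb of a start of 200 protein-coding genes, and 125 of them overlapped that start. For 86 of these members (42.2%) the gene had another DHS in a CAST list within 1 kb of one of its starts, at the same or an alternative start. For the other 118 no CAST DHS stood within 1 kb of any annotated start of the gene. Members have no CAST peak by the rule, so this split was in part set by it and is a description. The one with the highest lower rank of the 2 B6 lists, at chr17:88996564-88997501, overlapped the start of Ston1, an endocytic adaptor, with a fold enrichment of 6.11 in male and 4.89 in female B6. At chr12:17888315-17888941, 62 bp from a start of the predicted gene Gm9222, the values were 9.29 and 4.82. Beside Khdrbs3, which encodes an RNA-binding protein, they were 5.85 and 3.92, and at Kcnmb3, a potassium channel subunit, 4.39 and 3.76.

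The other named promoters belonged to genes with a CAST DHS at one of their starts, although the nearest CAST peak could lie far off. The region in Nab1, a co-repressor of EGR transcription factors, had a fold enrichment of 7.47 in male and 4.07 in female B6 and lay 175 bp from a start and 17022 bp from a CAST peak. In Shmt1, the cytosolic serine hydroxymethyltransferase that feeds one-carbon metabolism, a region 777 bp from a start had 5.14 and 3.63. At the start of Slc17a1, a phosphate and urate transporter, the values were 3.18 and 2.89, with a CAST peak 772 bp away. A region 147 bp from a start of Cdk1, the kinase of mitotic entry, had 7.56 in male and 3.65 in female B6. At Tbcel, a tubulin-binding protein, the values were 3.99 and 3.32, with a CAST peak 34425 bp away.

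Genes of liver function held more DHSs of any kind than other genes, and both strain-specific classes were found near them. Regions were assigned to a gene when they lay in its body or within 20 kb. Of the 16244 protein-coding genes with any DHS there, 1577 (9.71%) had a member, and of the 41124 regions in these windows 1221 were members (2.97%). Of 609 genes in 9 lists of liver pathways, 91 (14.9%) had one. Genes in 8 of the 9 lists held more DHSs, with medians of 5 to 8 a gene against 3 over all genes and in the immune list, and per region the members' share was 1.28% to 3.70%, below the 2.97% of all genes in 8 of the 9 lists. CAST-only regions stood near at least as many genes as members did in 7 of the 9 lists, with 16.7% to 26.5% of genes in these 7 against 10.4% over all genes. With a window of 2.5 kb the gene counts were 48 of 577 (8.32%) for the lists and 6.53% over all genes. The lists were chosen with earlier results of these data known, and genes that stand side by side share regions.

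Plasma proteins had a member near 20 of 105 genes (19.05%), from 15 regions that were 2.75% of the 546 regions there. A single region was counted for all 4 serum amyloid genes Saa1 to Saa4. The highest of this list for females lay 9029 bp upstream of Apoa5, an apolipoprotein that controls plasma triglycerides, where −log10 q was 38.7 in male and 10.3 in female B6. At F11, clotting factor XI, a region 5193 bp upstream had a fold enrichment of 3.66 in male and 2.73 in female B6. Upstream of Itih1, a carrier of hyaluronan, the values were 2.498 and 2.83, and upstream of Serpina3m, a protease inhibitor of the acute phase, 6.11 and 3.08. Albumin held a pair of members within its body, at 2.00 and 1.93 and at 1.91 and 2.24, beside 4 regions found in all lists.

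Drug metabolism genes had a member near 17 of 102 genes (16.7%), from 12 regions (2.64% of those there). At Ephx2, the soluble epoxide hydrolase, a region 5255 bp upstream had a fold enrichment of 6.27 in male and 4.09 in female B6. In the Ugt1a cluster, whose enzymes glucuronidate bilirubin and drugs, an intronic region had 5.02 and 3.89. In Cyp3a16, a cytochrome P450, the values were 6.48 and 3.55. Transporters had a member near 15 of 80 genes (18.8%). By the lower of their −log10 q ranks in the B6 lists, the first were in Abcc3, an exporter of conjugates into blood, at 3.98 and 3.81, at Slc17a1 as above, upstream of Slco1a4, an importer of organic anions, at 3.81 and 2.80, and 37 bp past the end of Slc25a47, at 2.98 and 2.403. Regions at Slc16a7, at 5.23 and 2.68, Aqp4, at 5.61 and 2.54, and Abca9, at 4.59 and 2.61, had higher fold enrichments than the last of these and lower female ranks.

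In glucose and amino acid metabolism 8 of 54 genes (14.8%) had a member. A region in Haao, an enzyme of tryptophan breakdown, reached a −log10 q of 65.3 in male and 28.02 in female B6, the highest of this list in both sexes. The next were in Afmid, of the same pathway, at 15.5 and 11.4, in Got1, the aspartate aminotransferase, at 44.1 and 10.98, and upstream of Hpd, an enzyme of tyrosine breakdown, at 8.55 and 6.32. In bile acid and cholesterol metabolism 7 of 44 genes (15.9%) had one, among them Amacr, Npc1 and Slc27a2, with fold enrichments of 2.27 to 4.30 in male B6. In fatty acid metabolism 5 of 60 genes (8.33%) had one, and members were 1.28% of the regions there (0.547 to 2.96) against 3.84% for CAST-only regions (2.34 to 6.23). These were Ppargc1a, a co-activator of fasting metabolism, Lipc, Hadhb, Gpam and Acadm, and none exceeded a fold enrichment of 3.61 in either sex.

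Transcription factors and nuclear receptors had one near 8 of 65 genes (12.3%), with 10 members among 668 regions (1.497%, 0.815 to 2.73). By the same rank the first were in introns of Esrrg, an orphan nuclear receptor, at 3.60 and 2.81, of Thrb, a thyroid hormone receptor, at 3.24 and 3.01 and at 3.07 and 2.68, and of Nfia at 2.81 and 2.79. Growth hormone signalling and sex-bias regulators had one near 4 of 34 genes (11.8%), which were Ihh, Trim24, Egfr and Gadd45b. CAST-only regions stood near 9 of these 34 genes (26.5%), near 13 of the 65 transcription factor and receptor genes (20%) and near 17 of the 71 immune genes (23.9%). Immune and interferon genes had one near 7 of 71 genes (9.86%), near the background share of 9.71%. Among them were regions at the chemokine genes Cxcl9 and Cxcl10, at Irf1 and at H2-Q10, with fold enrichments of 3.12 to 3.55 in male B6.

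The markers of sinusoidal endothelial cells, which line the liver's capillaries, were the marker list with the most genes near a member. Of 14 such genes, all with a DHS within 20 kb, 6 (42.9%) had a B6-only region, against 2 (14.3%) with a CAST-only region, and the count was 6 of 14 with a window of 2.5 kb and 5 of 14 after scaling to the background of the shallowest list. Per region, members were 6.93% (3.40 to 13.6), against 2.97% near all genes, and CAST-only regions were 4.95% (2.13 to 11.1), with 5 CAST-only regions at 2 of the genes and 7 members at 6 of them. Of these 7 regions, 6 lay within 1 kb of a start. They were at Stab2, a scavenger receptor for hyaluronan, at 3.59 in male and 2.33 in female B6, with another in its body at 3.96 and 2.37. Stab2 also held 4 of the 5 CAST-only regions, and of its 22 regions 17 had a peak in male CAST and 10 in male B6. At Fcgr2b, an inhibitory Fc receptor, the fold enrichments were 3.21 and 2.77. At Bmp2, the ligand through which these cells set hepcidin in hepatocytes, they were 2.90 and 2.46, and at Kdr, a receptor for VEGF, 2.55 and 2.35. At Tek, the receptor for angiopoietins, they were 2.68 and 2.28, and at Clec4g, a lectin, 3.14 and 2.21. For the 7 regions −log10 q was 6.35 to 18.4 in male and 2.64 to 6.98 in female B6.

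The promoters of whole marker lists were also counted in each peak list. A DHS within 1 kb of a start was present for 12 of the 14 endothelial markers in B6 males, 6 in B6 females, 5 in CAST males and 2 in CAST females. The 6 open in B6 females, Bmp2, Clec4g, Fcgr2b, Kdr, Stab2 and Tek, were the genes that held members, so the difference between B6 and CAST was in part set by the rule that chose the regions, and these counts are a description. After scaling to the background of the shallowest list the counts were 10, 5, 5 and 2, and once every list was cut to the length of the shortest 4, 5, 2 and 2. The stellate cell markers had 7, 3, 4 and 0 of 14 in the same order of lists, which became 1, 2, 0 and 0 at equal list length and 7, 2, 4 and 0 after the scaling, the bile duct markers 4, 3, 3 and 3 of 10, the Kupffer cell markers 2, 1, 1 and 1 of 13, and the lymphocyte markers 1 of 14 in each. Of the hepatocyte markers 9 of 10 were open in both male lists and 8 of 10 in both female lists. No member lay near a Kupffer, stellate or lymphocyte marker, of which 8, 11 and 11 had any DHS within 20 kb, with 15, 25 and 32 regions. Over all genes 9.71% had a member, and these lists are too short to read a difference from that share. In bulk liver a smaller number of cells of a type and less open chromatin in each cell cannot be told apart, and the part of endothelial cells in the B6-only set as a whole was not tested.

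**Figure D4:**
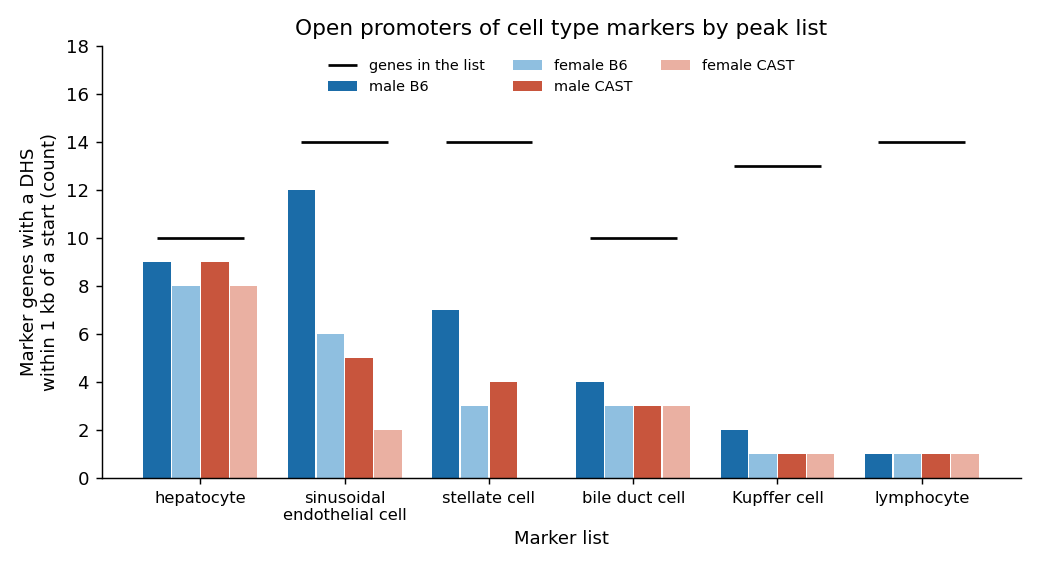
Number of marker genes with a DHS within 1 kb of an annotated start (vertical, count) for 6 cell type lists (horizontal), with 1 bar for each peak list and a black line at the number of genes in the list. Endothelial markers were open at 12, 6, 5 and 2 of 14 genes in the order of the bars, and hepatocyte markers at 9, 8, 9 and 8 of 10.

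Between the sexes of B6, members had a median log2 ratio of female to male fold enrichment of −0.25, against −0.42 in the regions of all 4 lists. The ratio was above 0 for 392 members (23.5%) and for 993 shared regions (5.52%). Fold enrichment was lower in the female list in most regions, so ratios are read against these medians and not against 0. With the stricter threshold in every list the medians were −0.341 for members and −0.430 for shared regions. With it in the B6 lists alone they were −0.415 and −0.418, and with lists of equal size −0.397 and −0.435. With lists scaled to equal depth they were −0.266 and −0.420, with 50% overlap −0.250 and −0.425, and with peaks within 500 bp joined −0.253 and −0.423. In the 3 sets of 557 members by lower rank, the medians were −0.205 in the weakest, −0.191 in the middle and −0.335 in the strongest set. Among regions between the members' quartiles of male B6 rank, the medians were −0.29 for 837 members and −0.25 for 3378 shared regions. This band was cut on male B6 values, which also enter the ratio. The part of strength in the difference between the classes was therefore not tested.

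The female-leaning extreme was a region in an intron of Slc22a29, an organic anion transporter gene, at chr19:8326416-8327383. Its fold enrichment was 2.57 in male and 7.70 in female B6, a log2 ratio of 1.58, and it was the only region within 20 kb of the gene, with the nearest CAST peak 178093 bp away. The next were in introns of Kank1, at 1.78 and 2.90, Adamts17, at 2.69 and 3.95, Tspan12, at 1.63 and 2.36, and Rreb1, at 1.97 and 2.81. The male-leaning extreme lay 264002 bp from Adcy2, an adenylate cyclase, with 8.32 in male and 2.88 in female B6, a log2 ratio of −1.53. A region 53201 bp from Prl4a1, of the prolactin family, had 10.3 and 3.75. Regions in introns of Exoc4 and Ephb2 had 7.04 and 2.57 and 7.23 and 2.88, and one 13277 bp from Olig1 had 6.11 and 2.48. With 1 list for each sex, no error can be given for these ratios.

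Members were spread over all 19 autosomes, from 2.62% of the regions on chr11 to 3.92% of those on chr8, and some stood in runs. The region nearest to a member was another member in 174 cases (10.4%, 9.04 to 11.97), against the 3.30% that members made of all regions. For CAST-only regions the same share was 11.9%. Of the 1423 genes that were nearest to a member, 1220 had a single one, and Camk1d and Galnt2 had the most with 6 each.

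In windows of 200 kb, 10 held 4 or more members, and ties among these were ordered by their strongest member. In the window of Galnt2, a transferase that starts O-linked glycosylation of lipoprotein regulators among other proteins, 6 of 12 regions were members and 3 were in all 4 lists. Their fold enrichments ran from 2.31 to 5.75 in male and from 2.09 to 4.99 in female B6. In the window of Camk1d, a calcium-dependent kinase, 5 of 11 were members, from 1.78 to 6.36 in male B6, and the region of 1.78 overlapped a start. None of the 11 regions was in all 4 lists. At Gm4889 4 of 7 regions were members, up to 8.43 in male B6, and at Ank3, which encodes ankyrin-G, 4 of 7, up to 7.18, one of which overlapped a start. Near the adhesion receptor genes Gpr110 and Gpr116 4 of 10 were members, up to 7.45, and near Tssc1 4 of 8, up to 5.62. The windows of Camk1d, Gm4889, Ank3 and Gpr110 held no region that was in all 4 lists.

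**Figure D5:**
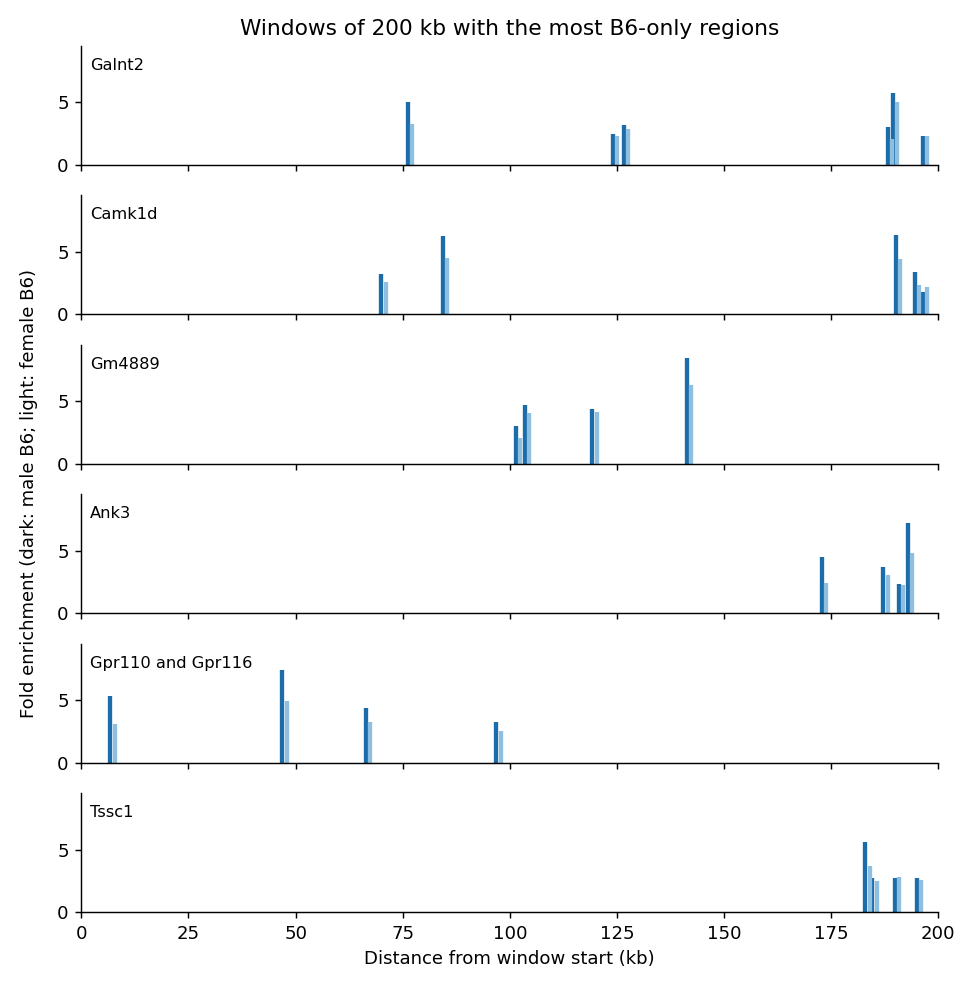
Fold enrichment (vertical) of each B6-only region in male B6 (dark) and female B6 (light) along the 6 windows of 200 kb with the most members, by distance from the window's start (horizontal, kb). Members stood close together in the Tssc1 window and far apart in the Gpr110 and Gpr116 window, and no light bar exceeded 6.30.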

How the data were processed

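The DNase-seq lists used here came from livers of 16 mice, 4 for each strain and sex, after the authors had left out 1 further library of each group for its quality. Per the methods and labels, the authors pooled the reads of each group's libraries. With Bowtie2 they mapped B6 reads to mm9 and CAST reads to an mm9 carrying CAST variants. Peaks were called with MACS2, and blacklisted and duplicate-driven peaks were removed. CAST positions were converted back to mm9. The deposited peaks hold a score, a fold enrichment over local background (a ratio), −log10 p, −log10 q and a summit offset. The deposited score column was not used in any result.

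Peaks were joined at 1 bp overlap (pandas 2.3.3) and annotated with Gencode vM1. Summit pileups were recovered from fold enrichment and −log10 p and came out whole within 0.02 for 99.86% to 99.96% of peaks. Copies were sought with blastn 2.17.0. Fisher's exact tests and Wilson intervals came from scipy 1.17.1, Newcombe intervals from statsmodels 0.14.6. Steps were tested on simulated data. Intervals cover counting error only. The genome given is not soft-masked, so the planned repeat comparison was not run and the family held 6 tests in place of 8.

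Named members were the 12 with the highest lower rank of −log10 q in the B6 lists, the 10 such members within 1 kb of a protein-coding start, up to 4 for each gene list, the 5 highest and 5 lowest female to male ratios, and the 6 windows of 200 kb with the most members. Members and lists were chosen with earlier results of these data known. The libraries' own reads, and CAST variants, were not used here. Motif words were chosen after their counts had been seen. Some items that the naming rule selects are not reported here. Alternatives changed the overlap, thresholds, list size, depth, chromosomes, distance limits and identity.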

Additional observations from a re-analysis of the deposited data

Results flagged for a closer look

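Outside chr1 to chr19, which the comparisons did not use, 37 further regions had a peak in both B6 lists and in neither CAST list. Of these, 21 were on chrX, 11 on chrY and 5 on chrM. They are listed because they lie in data left out of the report. Their count follows from the rule that chose them and is given as a description. By the rule, all 11 on chrY have a peak in the list from female livers, which carry no chrY, and the source of those peaks was not tested.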

How the results depend on the processing

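Each group had 1 pooled list, so leaving out a replicate was not possible. No paired analysis was possible because the lists pool the 4 libraries of a group and carry no replicate number, which leaves nothing to pair or block. Of 88 alternatives over 18 results, 59 kept the reported direction, side of the threshold or size. The planned repeat alternatives were not run. The distal share against shared regions kept its direction and passed under every alternative tried.

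The number of B6-only regions was 351 with −log10 q of at least 15.7 in every list and 152 with that limit in the B6 lists alone, and 1501 to 1933 under the other settings. Median fold enrichment in male B6 was 3.23 with 50% overlap, 5.39 and 5.99 with the stricter limits in this order, 3.67 with lists of equal size and 3.30 with backgrounds scaled to the shallowest list. In female B6 it was 2.67, 4.23, 4.42, 2.79 and 2.68 in the same order. The female to male log2 ratio was −0.34 and −0.42 with the stricter limits and −0.40 with equal size. The stricter limits, equal size and the scaling drop weaker peaks by construction, and for the other settings the cause was not tested.

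Against CAST-only regions, the distal difference was −3.89 points with the limit in every list and reversed to 12.4 with it in the B6 lists alone, which also raised the CAST-only regions to 5613. The gene-body difference reversed to −2.29 and −13.7 points, the latter past the threshold, and the copy difference to 0.959 with the B6 limit and 0.176 below the male median. The copy difference from shared regions did not pass at 50% overlap (0.237), under the stricter limits (0.585 and 1.10), at equal size (0.232) or below the male median (0.0198). Beyond the construction of these settings the cause was not tested. Pathway genes with a member numbered 48 with 2.5 kb in place of 91. At equal size, an alternative chosen after seeing the data, endothelial promoters with a DHS numbered 4 in male B6 and 2 in male CAST. The precision is limited by counting error and by 1 list a group.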
